A study of Mus musculus with 24 samples.

Results

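The leukocyte integrins described here were 10 genes, chosen by symbol and found in the table of 17301 genes by their Ensembl identifiers: the α-chain genes Itga4, Itga5, Itga6, Itgal, Itgam, Itgav and Itgax and the β-chain genes Itgb1, Itgb2 and Itgb7. All 10 were among the 12878 genes tested, which had a mean of at least 1 RPKM, that is, reads relative to the length of the gene and the size of the library, in at least 1 group. RNA of 4 myeloid populations sorted from the colon was sequenced: F4/80 high MHCII high macrophages (MHCIIhi), F4/80 high MHCII low macrophages (MHCIIlow), monocytes and neutrophils. Each came from the lamina propria (LP) of mice of the strain labelled C57/BL and from colon tumours of mice of the strain labelled APC/Min, with 3 libraries in each of the 8 groups. Apc Min/+ mice carry a truncating mutation in 1 allele of the tumour suppressor Apc and form intestinal adenomas. In the study, tumours were induced in young adults with about a week of dextran sodium sulphate (DSS) in the drinking water, and the mice were killed about a month later. The labels call the LP healthy, whereas the study's text describes DSS for wild-type mice as well, so the DSS status of the LP donors was not settled here. Strain, tumour and the separate isolation protocols of LP and polyps therefore cannot be told apart in any comparison of tumour with LP.

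For every library the tissue of many mice was pooled, and the labels give each library a donor number, read here as a pool within its tissue. LP MHCIIhi macrophages, LP monocytes and LP neutrophils came from pools III, IV and V and LP MHCIIlow macrophages from pools II, III and IV. Tumour macrophages of both subsets came from pools I, V and VII, and tumour monocytes and neutrophils from pools I, II and V. In bulk RNA of this kind, fewer cells of a type and less RNA per cell cannot be told apart. The sort gates of the study bear on 2 members directly. CD11b, the product of Itgam, had to be present on all 4 populations, and cells high for both CD11c, the product of Itgax, and MHCII were set aside as dendritic cells before the macrophage gates.

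Integrins are heterodimers of an α and a β chain that join the cell to matrix proteins and to counter-receptors on other cells. The β2 chain pairs in leukocytes with αL (LFA-1, which binds ICAM-1), αM (Mac-1, which binds ICAM-1, fibrinogen and the complement fragment iC3b) and αX (CD11c), and its loss causes leukocyte adhesion deficiency. The α4 chain pairs with β7 to bind MAdCAM-1 on vessels of the gut and with β1 to bind VCAM-1, while α5β1 is the classic fibronectin receptor, α6β1 a laminin receptor, and αV chains bind RGD ligands and activate latent TGF-β. The cytoplasmic tail of the β chain is bound by talin and kindlin-3 when the receptor is switched on, a step driven by the GTPase Rap1.

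The promoters of Itgb7, Itga5 and Itgax are shown because these members changed between LP and tumour macrophages: Itgb7 and Itga5 were lower in tumours and Itgax rose in the MHCIIlow subset. The sequences are those of RefSeq on GRCm38.p6, which had a promoter for 7 of the 10 members (Itga6, Itgal and Itgb2 had no entry), and run from 250 bases before to 50 bases after the start of the gene. The windows are chr15:102231886-102232185 on the minus strand for Itgb7, chr15:103366742-103367041 on the minus strand for Itga5 and chr7:128129300-128129599 on the plus strand for Itgax. Capitals mark matches, on either strand, to 4 motifs: the PU.1-type core GAGGAA, the Runx-type core TGTGGT, the Sp1-type core GGGCGG and the AP-1 element TGAGTCA.
Itgb7: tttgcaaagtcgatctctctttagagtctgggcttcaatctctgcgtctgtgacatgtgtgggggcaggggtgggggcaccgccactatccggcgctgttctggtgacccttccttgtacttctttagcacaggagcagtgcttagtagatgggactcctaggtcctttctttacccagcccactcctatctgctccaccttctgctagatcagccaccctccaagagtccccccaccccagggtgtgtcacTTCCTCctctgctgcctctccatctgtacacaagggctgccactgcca
Itga5: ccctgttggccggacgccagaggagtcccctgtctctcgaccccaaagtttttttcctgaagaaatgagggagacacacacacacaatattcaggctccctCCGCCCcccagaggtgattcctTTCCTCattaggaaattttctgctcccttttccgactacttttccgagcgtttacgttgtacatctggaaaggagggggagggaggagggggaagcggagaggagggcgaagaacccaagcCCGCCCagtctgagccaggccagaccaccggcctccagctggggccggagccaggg
Itgax: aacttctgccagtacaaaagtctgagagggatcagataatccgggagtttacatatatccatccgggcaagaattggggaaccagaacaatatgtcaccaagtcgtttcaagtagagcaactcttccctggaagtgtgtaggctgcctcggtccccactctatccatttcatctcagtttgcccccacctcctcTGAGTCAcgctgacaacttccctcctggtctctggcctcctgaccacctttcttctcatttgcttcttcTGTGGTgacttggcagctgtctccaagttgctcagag
The Itgb7 window held 1 match, to GAGGAA on the opposite strand. Itga5 held 1 match to GAGGAA and 2 to GGGCGG, all on the opposite strand, and Itgax held 1 match to TGAGTCA and 1 to TGTGGT. No match overlapped another. Of 32851 mouse promoter windows of this length, 28.3% held GAGGAA, 16.8% TGTGGT, 35.7% GGGCGG and 5.2% TGAGTCA, so these matches describe the windows and show nothing about binding. Among the other 4 windows, Itgam held 3 matches to GAGGAA and 1 to GGGCGG, Itgav 2 and 1, Itgb1 1 and 1, and Itga4 1 to TGTGGT and 1 to GGGCGG.

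On GRCm38, by the GENCODE M21 annotation, Itgal, Itgam and Itgax lie on chromosome 7, Itgam at 128062640-128118491 and Itgax beside it at 128129547-128150657, both on the plus strand. Itga4, Itga6 and Itgav lie on chromosome 2, Itga5 and Itgb7 on chromosome 15, Itgb1 on chromosome 8 and Itgb2 on chromosome 10. All 10 are protein-coding. For Itgam, 68.7% of exon bases also belong to the annotated gene Gm49368, which the table does not hold, so reads could have been split there. In Itgax, 7.89% of 51-base stretches also occur in Itgad, the gene of a related α chain.

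The 24 libraries held 12838061 to 41718078 reads on genes, and reads per library for single members ran from 15 for Itga6 to 77441 for Itgb2. The library sizes behind the deposited values were 0.466 to 1.51 times the summed reads, and were lowest in neutrophils, at 0.466 to 0.682 times. Markers of macrophages and neutrophils followed the sort: 8 macrophage genes summed to 3700 to 7460 RPKM in the macrophage libraries against 470 to 736 in monocytes and 186 to 268 in neutrophils. The 8 neutrophil genes summed to 12200 to 32800 RPKM in neutrophils against 30.9 to 691 in all other libraries. The 6 monocyte genes separated the populations less: they summed to 857 to 1260 RPKM in LP and 2790 to 3510 in tumour monocytes, but also to 648 to 806 in LP and 924 to 1290 in tumour neutrophils, and to 453 in the LP MHCIIlow library of pool II against 126 and 142 in those of pools III and IV. Summed levels of other cell types moved between tissues: the 6 B and plasma cell genes in the table reached 575 RPKM in LP monocytes and 1300 in LP neutrophils against at most 20.0 in their tumour counterparts, and 8 fibroblast and endothelial genes reached 6.71 to 51.9 in LP macrophages against 0.632 to 1.56 in tumour macrophages. The 8 epithelial genes summed to 105 to 316 RPKM in tumour monocytes and neutrophils against 13.2 to 213 in the LP. T and NK cell genes stayed at or below 9.51 RPKM, mast cell and basophil genes at or below 21.8, and eosinophil genes at or below 42.2, the last in LP neutrophils. The part of these cells in the integrin results was not tested.

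Itgb2 was the member with the highest mean log2 RPKM in all 8 groups. Group means differed 269-fold from lowest to highest for Itgb7, 74.0-fold for Itgal, 39.4-fold for Itga6, 15.8-fold for Itgax and 10.5-fold for Itgam. The remaining members varied less, by 6.36-fold for Itgb2, 5.24-fold for Itga5, 4.92-fold for Itgb1, 3.94-fold for Itga4 and 2.25-fold for Itgav. The median SD within groups was 0.16 to 0.32 on the log2 scale for 8 members, but 0.69 for Itgb7 and 0.92 for Itga6, whose values are less certain.

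**Figure D1:**
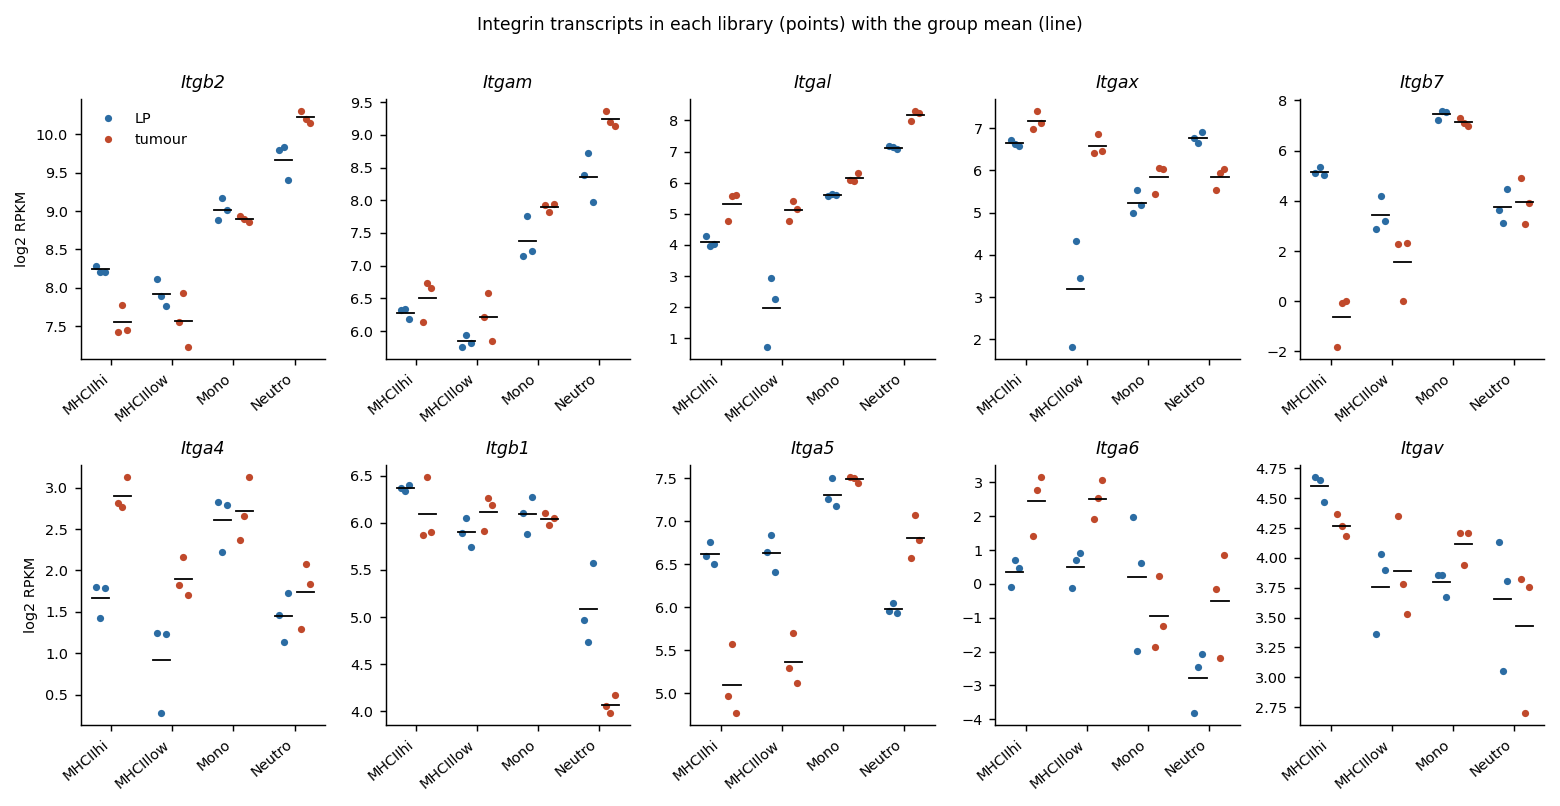
Log2 RPKM of the 10 integrin genes (1 panel each, with its own vertical axis) in the 4 populations of LP (blue) and tumour (red); points are libraries and lines the means of 3. On this scale Itgb2, Itgam and Itgal were highest in neutrophils (with quantile normalization Itgb2 was lower there than in monocytes), Itgb7 was highest in monocytes, and Itgb7 in tumour MHCIIhi macrophages had a mean of -0.62 against 5.16 in the LP.

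Members were called with limma over all 12878 genes at an adjusted p under 0.05. Between tumour and LP, 5 of 10 members passed in MHCIIhi macrophages (2 higher, 3 lower) beside 19.5% of all genes (8.01% higher, 11.5% lower), with a median log2 fold change of -0.03 for the members and 0.0 for all genes. In MHCIIlow macrophages 5 passed (3 higher, 2 lower) beside 23.3% (11.5% higher, 11.8% lower), with medians of 0.3 and 0.06. In neutrophils 5 passed (4 higher, 1 lower) beside 32.2% (13.1% higher, 19.0% lower), with medians of 0.42 and -0.12. In monocytes 0 passed beside 9.29% (4.86% higher, 4.43% lower), 1 had an unadjusted p under 0.05 and limma's voom on recovered reads also called 0. In this fit, counts of members were above the share of all genes in 3 of the 4 populations. In neutrophils the count fell with quantile normalization, with libraries weighted by quality and with summed reads as library size. The members were chosen with earlier results of these data known, so the counts only describe these 10 genes.

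Between the macrophage subsets, 2 members were lower in MHCIIlow than in MHCIIhi cells in the LP, beside 7.7% of all genes (2.13% higher, 5.57% lower). In tumours 0 passed beside 1.13% (0.567% higher and 0.567% lower). There 2 had an unadjusted p under 0.05, and voom on recovered reads called 1, Itga4. Between macrophages (mean of both subsets) and monocytes, 6 members passed in the LP, all lower in macrophages, beside 29.5% (12.5% higher, 17.0% lower), and 7 in tumours (2 higher, 5 lower) beside 38.3% (16.8% higher, 21.4% lower). Between neutrophils and monocytes, 9 passed in the LP (4 higher, 5 lower) beside 54.5% (24.1% higher, 30.4% lower) and 8 in tumours (3 higher, 5 lower) beside 58.1% (23.3% higher, 34.9% lower). In these last comparisons most genes differed, so a high count is less particular. The medians of the members against all genes were -0.61 and -0.03 between subsets in the LP and -0.09 and 0.0 in tumours. They were -0.82 and -0.02 between macrophages and monocytes in the LP, and -0.63 and 0.0 in tumours. Between neutrophils and monocytes they were -0.57 and -0.24 in the LP and -0.34 and -0.36 in tumours. These comparisons share libraries with those between tissues.

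Itgb2 encodes the β2 chain common to LFA-1, Mac-1 and CD11c/CD18. In MHCIIhi macrophages its log2 RPKM was 8.29, 8.20 and 8.21 in the LP and 7.43, 7.77 and 7.45 in tumours. The libraries did not overlap, and Itgb2 was 1.60-fold lower in tumours (log2 fold change -0.68 ± 0.16 SE, limma adjusted p = 0.00492). In MHCIIlow macrophages the ranges of 7.76 to 8.11 and 7.23 to 7.93 overlapped (-0.34 ± 0.16, limma adjusted p = 0.141), although without tumour library V the adjusted p was 0.0308. In monocytes the change was -0.12 ± 0.16, with a 95% interval of -0.46 to 0.21. Neutrophils held 9.79, 9.83 and 9.40 in the LP and 10.31, 10.20 and 10.15 in tumours, all higher, a rise of 0.55 ± 0.16 (1.46-fold, limma adjusted p = 0.0136). That call was lost without LP neutrophil library V (adjusted p = 0.0807), with quantile normalization (0.612), with only the libraries compared (0.0589), with libraries weighted by quality (0.0929) and with summed reads as library size (0.09, adjusted p = 0.642).

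Itgal encodes the αL chain of LFA-1. The lowest values of all were those of LP MHCIIlow macrophages, 0.72, 2.94 and 2.25 log2 RPKM in pools II, III and IV, against 4.76, 5.41 and 5.15 in their tumour counterparts. The groups lay far apart, and Itgal was 8.78-fold higher in tumours (3.13 ± 0.35, limma adjusted p = 1.53e-06). The call held in all 6 fits without 1 library, but the log2 fold change was 2.51 without the LP library of pool II, the lowest for Itgal and the highest for the monocyte genes. In MHCIIhi macrophages the values were 4.30, 3.97 and 4.02 in the LP and 4.78, 5.57 and 5.59 in tumours, again without overlap. This rise of 1.22 ± 0.35 (2.32-fold, limma adjusted p = 0.0163) was less firm, with adjusted p of 0.0578 without LP library IV, 0.0533 without LP library V, 0.0626 without tumour library V and 0.0732 without tumour library VII. Neutrophils had 7.17, 7.15 and 7.08 in the LP and 7.98, 8.32 and 8.24 in tumours, 2.07-fold higher (1.05 ± 0.35, limma adjusted p = 0.0253). Here too the libraries did not overlap, but adjusted p lay between 0.0523 and 0.0709 without any of LP libraries III, IV and V or tumour libraries II and V, and was 0.244 with quantile normalization, 0.0895 with libraries weighted by quality and 0.0816 with summed reads as library size. Monocytes had 5.58 to 5.65 in the LP and 6.07 to 6.32 in tumours, a difference of 0.55 ± 0.35 that did not pass (limma adjusted p = 0.381), except with only those 6 libraries in the fit (0.0299).

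Itgam encodes the αM chain, and CD11b was part of the gate of all 4 populations. In neutrophils its log2 RPKM was 8.38, 8.72 and 7.98 in the LP and 9.37, 9.20 and 9.14 in tumours. Every tumour library exceeded every LP library, a rise of 0.87 ± 0.20 (1.83-fold, limma adjusted p = 0.00245) that was lost with quantile normalization (0.0851) and with summed reads as library size (0.43, adjusted p = 0.083). In monocytes the change was 0.52 ± 0.20 (limma adjusted p = 0.119), and 0.0418 without LP monocyte library IV, the highest of its group at 7.76 against 7.15 and 7.22. In macrophages the tumour and LP means were 6.51 and 6.28 in the MHCIIhi subset and 6.22 and 5.85 in the MHCIIlow subset, and neither difference passed.

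Itgax encodes the αX chain, CD11c, by which dendritic cells are usually recognized, and which also entered the gates. LP MHCIIlow macrophages held 1.82, 4.34 and 3.45 log2 RPKM in pools II, III and IV, against 6.41, 6.86 and 6.45 in tumour MHCIIlow macrophages and 6.73, 6.62 and 6.58 in LP MHCIIhi macrophages. The LP MHCIIlow libraries stood below every library of the other 7 groups. Itgax was 10.4-fold higher in tumour than LP MHCIIlow cells (3.37 ± 0.38, limma adjusted p = 1.85e-06, and 2.68 without LP library II, the lowest, with the call kept), while the difference in MHCIIhi cells, 6.98 to 7.42 against 6.58 to 6.73, was 0.53 ± 0.38 (limma adjusted p = 0.379). In monocytes it was 0.60 ± 0.38 (limma adjusted p = 0.381). In neutrophils Itgax pointed the other way, at 6.76, 6.65 and 6.92 in the LP and 5.53, 5.94 and 6.04 in tumours, without overlap. The change of -0.94 ± 0.38 did not pass (limma adjusted p = 0.0644). It did pass with only the libraries compared (0.0169), log2(RPKM + 1) (0.0406), voom on recovered reads (0.0346) and summed reads as library size (-1.43, 0.00232). The 8 dendritic cell genes summed to 93.8 to 190 RPKM in LP and 2.8 to 20.9 in tumour neutrophils, with 5 of 6 tested lower in tumours by limma and a median log2 fold change of -4.47; their part in the lower Itgax was not tested.

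Other cell types bear on these changes in macrophages. The 8 neutrophil genes summed to 51.6 to 56.7 RPKM in LP and 154 to 225 in tumour MHCIIhi macrophages, and to 30.9 to 89.1 in LP and 256 to 691 in tumour MHCIIlow macrophages, with 4 of the 8 higher by limma in the latter. Ly6g had at most 3 reads in any library of LP macrophages or tumour MHCIIhi macrophages. The 8 dendritic cell genes summed to 54.4 to 77.0 RPKM in LP MHCIIhi and 10.0 to 18.2 in LP MHCIIlow macrophages, and to 7.72 to 16.6 and 4.33 to 6.22 in tumours. Flt3 had at most 3 reads in both MHCIIlow groups, and Cd209a in tumour MHCIIlow macrophages. Of 6 dendritic cell genes tested, 3 were lower by limma in MHCIIlow than in MHCIIhi cells of the LP, with a median log2 fold change of -2.69. Between tumour and LP MHCIIlow cells 1 of 6 was lower, with a median of -0.26. The part of dendritic cells in the Itgax result was not tested.

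The make-up of the β2 partners can be read as each α chain's share of the summed RPKM of Itgal, Itgam and Itgax. In LP MHCIIlow macrophages Itgam took 79.5% on average (68.9% to 91.3% over libraries), Itgax 14.5% (5.94% to 22.6%) and Itgal 5.97% (2.77% to 8.57%). In their tumour counterparts Itgam took 36.5% (31.9% to 40.0%), Itgax 46.6% (45.5% to 48.4%) and Itgal 17.0% (14.5% to 19.7%). The tumour MHCIIlow cells thus lay close to the MHCIIhi cells, in which Itgax took 51.2% in the LP and 52.4% in tumours. Monocytes kept nearly the same shares in both tissues, with Itgam at 65.6% and 64.7%, Itgal at 19.4% and 19.4% and Itgax at 15.0% and 15.9%. Neutrophils had the highest Itgal share, 24.2% in the LP and 30.6% in tumours, and the lowest Itgax share of the 8 groups was that of tumour neutrophils, 6.06% against 19.1% in the LP. The RPKM of Itgb2 divided by that of the 3 α chains together was 1.51 to 1.61 in LP and 0.608 to 0.772 in tumour MHCIIhi macrophages, and 2.64 to 4.64 and 0.830 to 1.01 in the MHCIIlow subset. In monocytes it was 1.84 to 2.23 in the LP and 1.19 to 1.39 in tumours, and in neutrophils 1.33 to 1.51 and 1.21 to 1.32. In all 4 populations the ranges of the tissues did not overlap, though in neutrophils they nearly met. These shares are descriptions of transcripts, since they do not measure the surface receptors.

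**Figure D2:**
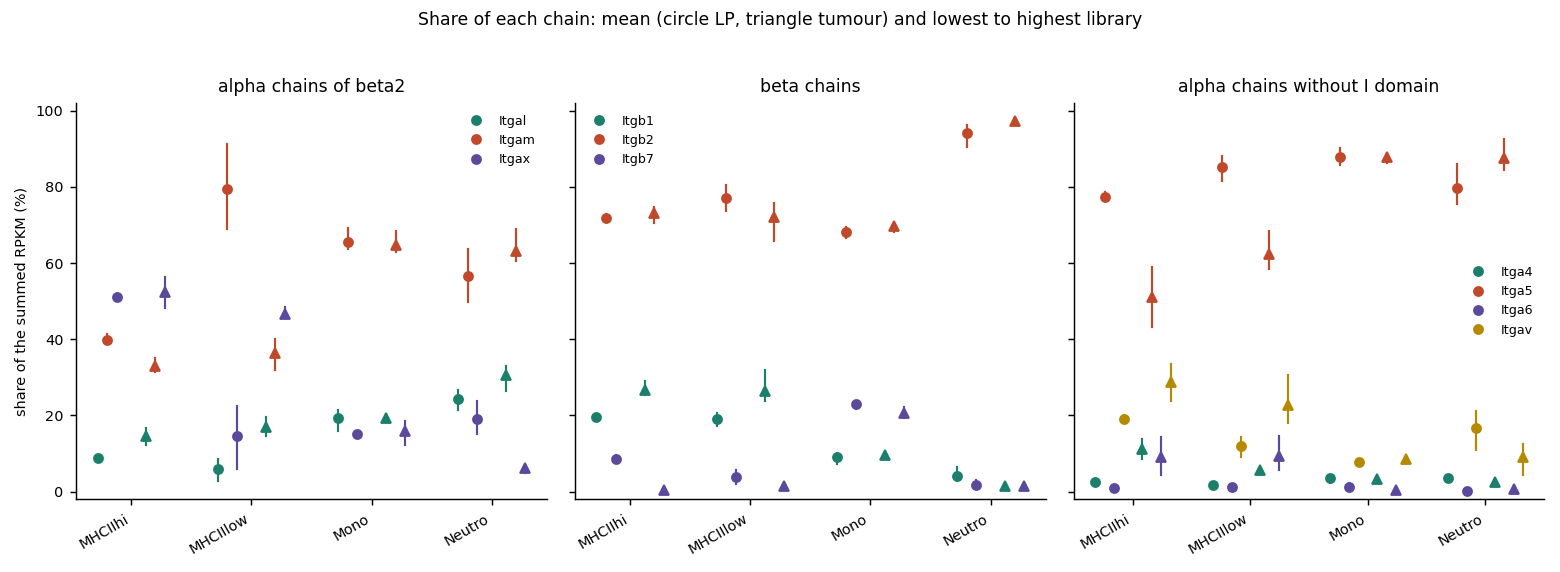
Share of the summed RPKM (%) of each chain within the α chains of β2 (left), the β chains (middle) and the other α chains (right), by population; circles are LP means and triangles tumour means of 3 libraries, with lines from the lowest to the highest library. The Itgam share of LP MHCIIlow macrophages, 79.5%, lay above the range of the tumour MHCIIlow libraries, 31.9% to 40.0%.

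Itgb7 encodes the β7 chain, which with α4 forms the gut-homing receptor of lymphocytes. It was highest in monocytes, at 7.23, 7.60 and 7.53 log2 RPKM in the LP and 7.32, 7.09 and 6.98 in tumours, ranges that overlapped (-0.32 ± 0.57, limma adjusted p = 0.814, 95% interval -1.51 to 0.87). LP MHCIIhi macrophages held 5.10, 5.34 and 5.05, and tumour MHCIIhi macrophages -1.82, -0.06 and 0.03. This was the largest change of any member between the tissues, 54.9-fold lower in tumours (-5.78 ± 0.57, limma adjusted p = 5.46e-07, and -5.18 without tumour library I), and it passed in all 11 alternative fits and in all 6 fits without 1 library. The tumour MHCIIhi libraries held 21 to 116 reads for Itgb7 against 2840 to 5296 in the LP. Its share of the summed RPKM of the 3 β chains was 8.56% (7.97% to 9.71%) in LP and 0.287% (0.12% to 0.431%) in tumour MHCIIhi macrophages. In MHCIIlow macrophages the values were 2.86, 4.20 and 3.21 in the LP and 2.29, 0.03 and 2.34 in tumours. The groups did not overlap, and Itgb7 was 3.65-fold lower in tumours (-1.87 ± 0.57, limma adjusted p = 0.0212), but adjusted p was 0.104 without LP library III, 0.168 without tumour library V (log2 fold change -1.1) and 0.143 with only the libraries compared. Neutrophils held 3.13 to 4.47 in the LP and 3.09 to 4.90 in tumours, and showed no detectable change (0.22 ± 0.57).

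Markers of monocytes, the population richest in Itgb7, also differed between the macrophage groups. The 6 monocyte genes summed to 58.5 to 65.8 RPKM in LP and 13.1 to 18.0 in tumour MHCIIhi macrophages, with 4 of 6 lower in tumours by limma, and to 126 to 453 and 13.4 to 24.6 in the MHCIIlow subset, with 1 of 6 lower. The dendritic cell genes, given above, were also lower in tumour MHCIIhi cells, with 3 of 6 tested passing. Their part in the fall of Itgb7 was not tested.

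Itga4 encodes the α4 chain, partner of both β7 and β1. In MHCIIhi macrophages it was 1.80, 1.43 and 1.79 log2 RPKM in the LP and 2.81, 2.77 and 3.13 in tumours, so that Itga4 rose as its partner Itgb7 fell (1.23 ± 0.29, 2.35-fold, limma adjusted p = 0.00505). In MHCIIlow macrophages it was 1.25, 0.28 and 1.23 in the LP and 1.83, 2.16 and 1.71 in tumours, also without overlap (0.98 ± 0.29, 1.97-fold, limma adjusted p = 0.0189). The latter call rested on LP library III, the lowest, and tumour library V, with adjusted p of 0.122 and 0.0868 without them, and was 0.102 with only the libraries compared. In monocytes, with 2.22 to 2.83 and 2.37 to 3.13, and in neutrophils, with 1.14 to 1.73 and 1.29 to 2.08, the tissues overlapped and neither difference passed. The ratio of Itgb7 to Itga4 in RPKM was 9.54 to 15.0 in LP and 0.0399 to 0.14 in tumour MHCIIhi macrophages, ranges that lay far apart. It was 3.05 to 15.2 and 0.228 to 1.55 in the MHCIIlow subset, and 21.2 to 41.4 and 14.5 to 31.0 in monocytes. Of the exon bases of Itga4, 8.0% also belong to Cerkl.

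Itgb1 encodes the β1 chain, the common partner of α4, α5 and α6. In neutrophils it was 4.97, 4.74 and 5.57 log2 RPKM in the LP and 4.06, 3.98 and 4.17 in tumours, with no overlap, a fall of 1.02 ± 0.18 (2.03-fold, limma adjusted p = 0.000256) that passed in all 11 alternatives and in all 6 fits without 1 library. In MHCIIhi macrophages (6.37 and 6.09), MHCIIlow macrophages (5.90 and 6.12) and monocytes (6.09 and 6.04) the differences of -0.28, 0.22 and -0.05 between the LP and tumour means did not pass. Beta chain shares in neutrophils changed with it: Itgb1 took 4.19% (2.83% to 6.37%) of the summed RPKM of Itgb1, Itgb2 and Itgb7 in the LP and 1.37% (1.27% to 1.54%) in tumours. Fibroblast and endothelial genes, types rich in Itgb1, summed to 18.4 to 35.5 RPKM in LP and 1.28 to 1.56 in tumour neutrophils. Of these 8 genes, 6 had at most 3 reads in every tumour neutrophil library. LP neutrophil library IV had the highest of these sums (35.5) and the lowest Itgb1 of its group (4.74). B and plasma cell genes summed to 358 to 1300 RPKM in LP and 0.628 to 20.0 in tumour neutrophils. Of the LP libraries, V was highest in these genes (1300), in the dendritic cell genes (190) and in Itgb1 (5.57). Tumour library II had the highest B and plasma cell sum of its group (20.0) and the lowest Itgb1 (3.98). The part of these cell types in the fall of Itgb1 was not tested.

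Itga5 encodes the α5 chain of the fibronectin receptor. LP MHCIIhi macrophages held 6.60, 6.76 and 6.50 log2 RPKM and their tumour counterparts 4.97, 5.57 and 4.77. MHCIIlow macrophages held 6.65, 6.84 and 6.41 in the LP and 5.29, 5.70 and 5.12 in tumours. In both subsets every tumour library was below every LP library, by 1.52 ± 0.18 on the log2 scale in MHCIIhi cells (2.86-fold lower, limma adjusted p = 5.81e-06) and by 1.26 ± 0.18 in MHCIIlow cells (2.40-fold lower, limma adjusted p = 3.59e-05), and both calls held in all 11 alternatives and all fits without 1 library. Neutrophils changed in the opposite direction, from 5.96, 6.05 and 5.94 to 6.58, 7.08 and 6.79, a rise of 0.83 ± 0.18 (1.78-fold, limma adjusted p = 0.0017). With the summed reads of each library as its size, an alternative chosen after seeing the data, that rise no longer passed (adjusted p = 0.137). Monocytes, the population with the highest Itga5, had 7.18 to 7.50 in the LP and 7.45 to 7.52 in tumours (0.18 ± 0.18, limma adjusted p = 0.635). Of the summed RPKM of Itga4, Itga5, Itga6 and Itgav, Itga5 took 77.4% (76.4% to 78.6%) in LP and 51.1% (43.3% to 59.0%) in tumour MHCIIhi macrophages, and 85.1% (81.6% to 88.1%) and 62.3% (58.4% to 68.5%) in the MHCIIlow subset, while it stayed at 87.8% and 87.9% in monocytes.

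Itga6, the α6 chain of laminin receptors, was low and uneven. Its log2 RPKM was -0.09, 0.70 and 0.46 in LP and 1.41, 2.79 and 3.17 in tumour MHCIIhi macrophages, and -0.13, 0.72 and 0.92 against 1.93, 2.55 and 3.07 in the MHCIIlow subset. The libraries did not overlap in either subset, but the differences of 2.10 ± 0.87 (limma adjusted p = 0.102) and 2.02 ± 0.87 (limma adjusted p = 0.106) did not pass. Both did with log2(RPKM + 1) (0.00953 and 0.00993), voom on recovered reads (0.00865 and 0.0124) and only the libraries compared (0.0435 and 0.0309). In all, 5 of 11 alternatives called the MHCIIhi and 4 of 11 the MHCIIlow difference, and 0 of 6 fits without 1 library called either. LP monocytes ranged from -1.97 to 1.98 and tumour neutrophils from -2.19 to 0.85, down to 101 and 16 reads in a library. Between tumour and LP neutrophils the difference of 2.28 ± 0.87 did not pass (limma adjusted p = 0.0509), but did without tumour neutrophil library II (0.0129). It also passed with a filter of 5 RPKM (0.0425), quantile normalization (0.0345) and median centring (0.0286). Itga6 is also an epithelial gene, and the epithelial list summed to 7.49 to 67.0 RPKM in tumour MHCIIhi and 12.8 to 193 in tumour MHCIIlow macrophages against 5.11 to 17.0 and 18.8 to 33.2 in the LP. Among tumour macrophages, pool I had the highest epithelial sum of each subset (67.0 and 193) and the lowest Itga6 (1.41 and 1.93). Tumour monocyte libraries I, II and V held 105, 316 and 216 RPKM of the epithelial genes. Their Itga6 was -1.85, 0.23 and -1.25, with a mean of -0.96, so its order followed that of the epithelial sums. In LP monocytes, library III was highest in both, at 213 RPKM and 1.98. The part of epithelial cells in the Itga6 values was not tested. Itgav, the αV chain, was the most even member, with group means of 3.43 to 4.60, and it did not pass between tissues in any population.

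**Figure D3:**
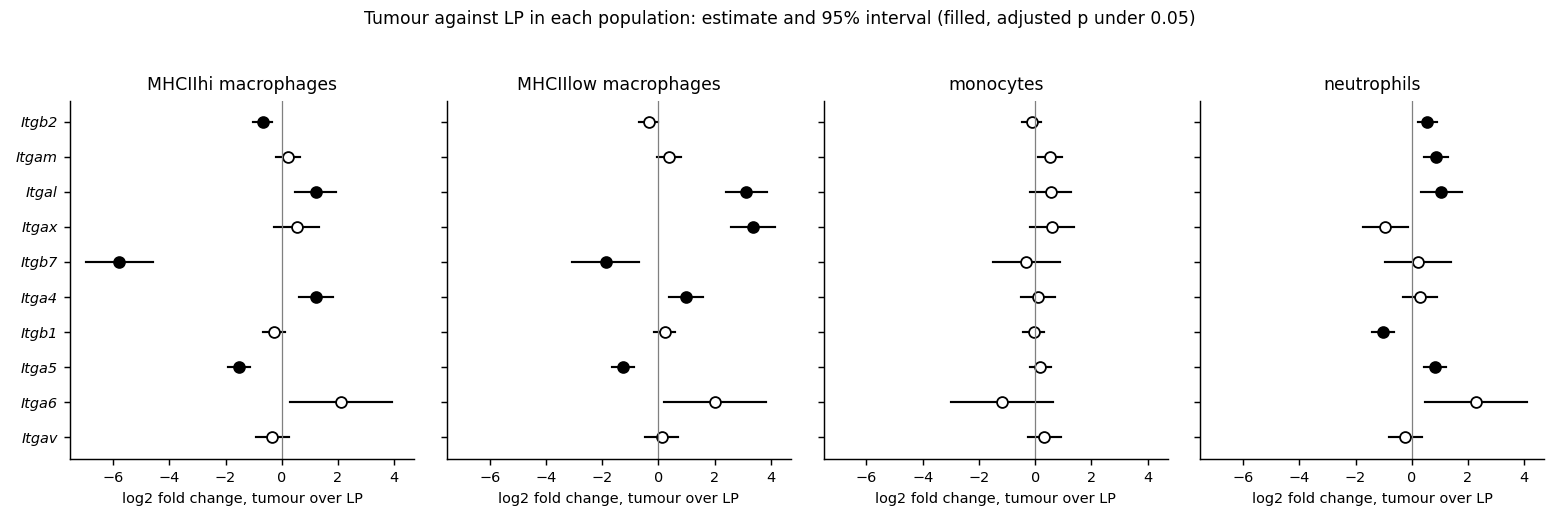
Log2 fold change of tumour over LP (horizontal axis) for the 10 integrin genes in the 4 populations; circles are limma estimates, lines 95% intervals, and filled circles passed an adjusted p of 0.05. Itgb7 in MHCIIhi macrophages, at -5.78, and Itgax in MHCIIlow macrophages, at 3.37, lay farthest from 0, and in monocytes 0 of 10 passed.

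Whether the change between LP and tumour differed between populations was tested as a difference of log2 fold changes. Between the macrophage subsets 2 of 10 members passed beside 1.46% of all genes. For Itgax the tumour change was 2.84 ± 0.53 higher in MHCIIlow than in MHCIIhi cells (limma adjusted p = 0.0113), and for Itgb7 it was 3.91 ± 0.81 higher (limma adjusted p = 0.0182), meaning that Itgb7 fell less in MHCIIlow cells. The Itgb7 difference had an adjusted p of 0.054 with the donor pool as a fixed replicate block, 0.0523 without LP MHCIIhi library IV and 0.107 with only these libraries in the fit, and the last gave 0.105 for Itgax. Without LP MHCIIlow library II the Itgax difference was 2.15, and the Itgb7 difference was 3.31 without tumour MHCIIhi library I and 4.68 without tumour MHCIIlow library V, all still called. For Itgal the difference of 1.92 ± 0.49 did not pass (limma adjusted p = 0.0544). It did pass with the pool as a fixed (0.0134) or random (0.0453) replicate block. Also calling it were log2(RPKM + 1) (0.0264), log2(RPKM + 0.1) (0.0431), a filter of 5 RPKM (0.0389) and quantile normalization (0.0483). Libraries weighted by quality (0.0155), voom on recovered reads (0.00771) and summed reads as library size (0.015) did so too. The other alternatives did not, but fits without LP MHCIIlow library II (0.0491) or III (0.00418) did.

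Between monocytes and macrophages (mean of both subsets) 3 of 10 passed beside 9.19% of all genes. The tumour change of monocytes was 1.57 ± 0.22 higher for Itga5 (limma adjusted p = 0.000118), 3.5 ± 0.70 higher for Itgb7 (limma adjusted p = 0.00254) and 1.62 ± 0.42 lower for Itgal (log2 difference -1.62, limma adjusted p = 0.0177), and each passed in all 12 alternatives and all 18 fits without 1 library. The difference for Itgax, -1.35 ± 0.46, did not pass (limma adjusted p = 0.0755), although with the fixed replicate block it did (0.0123). It also passed with log2(RPKM + 1) (0.0421), quantile normalization (0.0456), libraries weighted by quality (0.0227), voom on recovered reads (0.0105) and summed reads as library size (0.00372). Without LP MHCIIlow library II (0.0258) or III (0.00546) it passed as well. Itga6 (-3.23, limma adjusted p = 0.0645) and Itga4 (-1.0, 0.0918) did not pass. Some alternatives called each, among them libraries weighted by quality (0.0295 and 0.0312). By the main fit, 3 members thus changed in tumour macrophages differently from tumour monocytes, in which 0 members passed. Between neutrophils and monocytes 1 of 10 passed beside 9.11%: Itgb1, whose tumour change was -0.97 ± 0.26 in neutrophils relative to monocytes (limma adjusted p = 0.0213). That call was lost without LP monocyte library IV (0.0527), without LP neutrophil library V (0.0517) and with quantile normalization (0.134). It was also lost with only the libraries compared (0.0533) and with libraries weighted by quality (0.0529). With the fixed replicate block 3 members passed, Itgb1 together with Itgax (adjusted p = 0.00253) and Itgb2 (0.0472), whose log2 differences were -1.54 ± 0.53 and 0.67 ± 0.23.

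**Figure D4:**
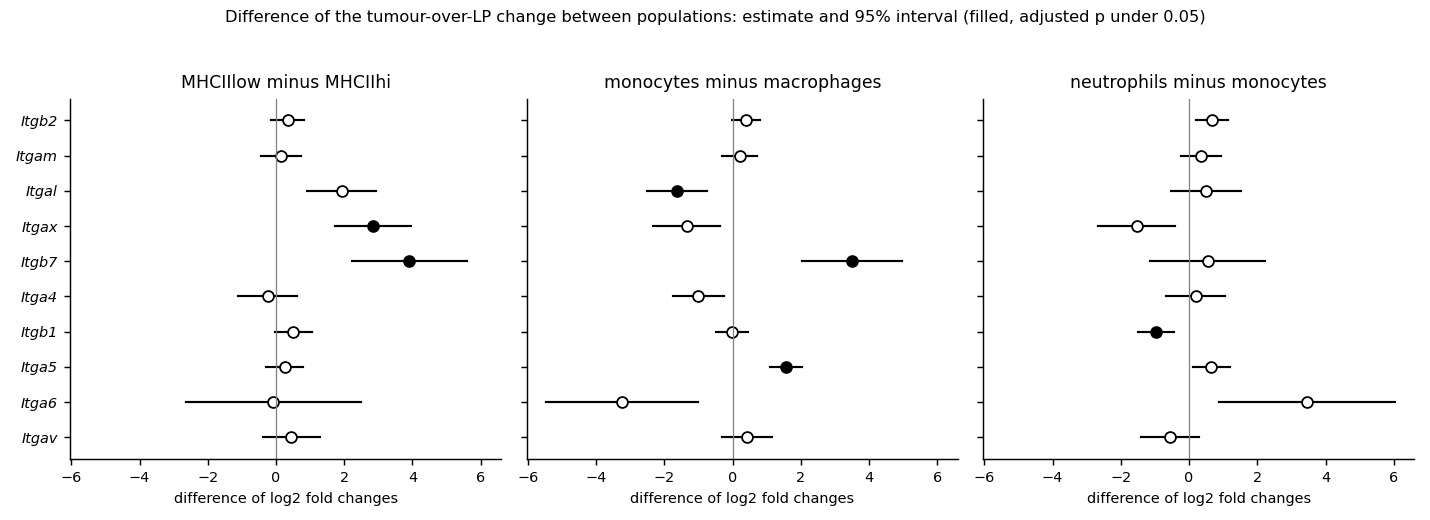
Difference between populations in the log2 fold change of tumour over LP for the 10 integrin genes; circles are limma estimates, lines 95% intervals, and filled circles passed an adjusted p of 0.05. Itgax (2.84) and Itgb7 (3.91) passed between the macrophage subsets, Itga5 (1.57), Itgal (-1.62) and Itgb7 (3.5) between monocytes and macrophages, and Itgb1 (-0.97) between neutrophils and monocytes.

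Within the LP, MHCIIlow macrophages had 10.8-fold less Itgax (-3.44 ± 0.38, limma adjusted p = 1.39e-05) and 4.36-fold less Itgal (-2.13 ± 0.35, limma adjusted p = 0.000521) than MHCIIhi macrophages. The libraries of the subsets did not overlap for either gene, and the Itgal call was lost with only the 6 libraries compared (adjusted p = 0.0951). Without LP MHCIIlow library II the values were -2.75 for Itgax and -1.5 for Itgal, both still called. Itgb7 was 2.86 to 4.20 against 5.05 to 5.34, lower in every MHCIIlow library but not past the threshold (-1.74 ± 0.57, limma adjusted p = 0.0704). It passed without LP MHCIIlow library III (0.0413), with log2(RPKM + 1) (0.0114) and with log2(RPKM + 0.1) (0.0422). Quantile normalization (0.0447), libraries weighted by quality (0.0189), voom on recovered reads (0.00183) and summed reads as library size (0.00498) also called it, and the other alternatives did not. In tumours the gap was smaller: Itgax was 6.41 to 6.86 in MHCIIlow and 6.98 to 7.42 in MHCIIhi cells, without overlap (-0.60 ± 0.38, limma adjusted p = 0.656), and Itgal was 4.76 to 5.41 and 4.78 to 5.59, which overlapped. There Itgb7 was 2.17 ± 0.57 higher in MHCIIlow cells without passing (limma adjusted p = 0.0713). It passed with quantile normalization (0.0348) and without tumour MHCIIlow library V (0.0198), the library of 0.03 beside 2.29 and 2.34. Itga4 was 1.71 to 2.16 in MHCIIlow and 2.77 to 3.13 in MHCIIhi cells of tumours, without overlap (-1.01, limma adjusted p = 0.11). Quantile normalization (0.0447) and voom on recovered reads (0.0263) called this Itga4 difference.

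In macrophages relative to monocytes, Itgb2 was 1.93-fold lower in the LP (-0.95 ± 0.14, limma adjusted p = 3.28e-05) and 2.53-fold lower in tumours (-1.34 ± 0.14, limma adjusted p = 2.1e-07). Of its α partners, Itgam and Itgal were lower as well: Itgam was 2.48-fold and 2.89-fold lower, and Itgal 5.94-fold and 1.93-fold lower. Itgax did not pass in the LP (-0.32 ± 0.33, limma adjusted p = 0.509). The Itgal difference in tumours, -0.95 ± 0.30 (limma adjusted p = 0.0169), was lost without tumour monocyte library V (0.0696). Itgb7 was 8.94-fold lower in the LP (-3.16 ± 0.49, limma adjusted p = 6.12e-05) and 101-fold lower in tumours (-6.66 ± 0.49, limma adjusted p = 1.7e-09). Itga5 was 1.61-fold and 4.78-fold lower, the former lost with quantile normalization (adjusted p = 0.0565), and Itga4 was 2.49-fold lower in the LP. Higher in macrophages, as the mean of both subsets, were 0 members in the LP, where for Itgax the subsets lay on either side of the monocytes (6.58 to 6.73 in MHCIIhi and 1.82 to 4.34 in MHCIIlow cells, with 5.00 to 5.54 in monocytes), and 2 in tumours, Itga6 (3.44 ± 0.75, 10.9-fold, limma adjusted p = 0.00114) and Itgax (1.03 ± 0.33, 2.04-fold, limma adjusted p = 0.0173), the latter lost without tumour monocyte library I (0.108) and the former at 4.03 without tumour monocyte library II.

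In neutrophils relative to monocytes the median log2 fold change over all genes was -0.24 in the LP and -0.36 in tumours, so that the scaling of libraries bears on each direction. Itgal was 2.88-fold higher in LP neutrophils (1.53 ± 0.35, limma adjusted p = 0.000945) and 4.07-fold higher in tumour neutrophils (2.03 ± 0.35, limma adjusted p = 4.79e-05), and lost both calls with quantile normalization (0.091 and 0.0691). Itgb2 was 1.56-fold and 2.49-fold higher, but with quantile normalization it was lower, by a log2 fold change of -0.72 in the LP and -0.26 in tumours, and with summed reads as library size it was -0.19 in the LP. Itgam was 1.98-fold and 2.54-fold higher, and -0.09 on the log2 scale with quantile normalization in the LP. The high β2 and αM of neutrophils thus depended on how libraries were scaled. Itgax was 2.89-fold higher in LP neutrophils (1.53 ± 0.38, limma adjusted p = 0.00197), a call lost with quantile normalization (0.0924), and did not differ detectably in tumours (-0.01 ± 0.38, limma adjusted p = 1.0), with 0.44 after median centring and -1.16 with summed reads as library size, the latter called (adjusted p = 0.00448).

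Lower in neutrophils than in monocytes were Itgb7, by 13-fold in the LP (-3.70 ± 0.57, limma adjusted p = 1.74e-05) and 8.95-fold in tumours, Itgb1, by 2.00-fold and 3.93-fold, and Itga5, by 2.51-fold and 1.60-fold. The Itgb7 and Itgb1 calls passed in all 12 alternatives in both tissues. Itga4 was 2.25-fold lower in the LP and 1.98-fold lower in tumours, but the latter was lost with median centring (adjusted p = 0.126), as was Itga5 in tumours (0.316). Itga6 was 7.98-fold lower in the LP (-3.0 ± 0.87, limma adjusted p = 0.00668), a call lost without LP monocyte library III (-2.11, 0.0572), with only the libraries compared (0.0756), with voom on recovered reads (0.123) and with summed reads as library size (0.0558), while without LP monocyte library IV the value was -4.09. Library III had the highest Itga6 (1.98) and epithelial genes of 213 RPKM, against 23.9 in library IV and 63.5 in library V, and their part in the difference was not tested. Itgav was 1.61-fold lower in tumours (-0.69 ± 0.28, limma adjusted p = 0.0428), and not past the threshold without tumour monocyte library I (0.102) or V (0.101) or tumour neutrophil library II (-0.32, 0.315), nor with median centring (-0.24, 0.48), only the libraries compared (0.143), voom on recovered reads (0.0566) or no filter on low values (0.053); in the LP it was -0.13 ± 0.28, with 0.16 after median centring and -0.91 with summed reads as library size, the latter called (adjusted p = 0.00251).

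Neighbours in the order of group means did not always differ beyond their spread. For Itgb7 the order ran from LP monocytes (7.45) and tumour monocytes (7.13), which overlapped, through LP MHCIIhi macrophages (5.16) to tumour neutrophils (3.97), LP neutrophils (3.75) and LP MHCIIlow macrophages (3.42), which overlapped in turn, and on to tumour MHCIIlow (1.56) and tumour MHCIIhi macrophages (-0.62), whose ranges also met. For Itgal the 8 groups ran from tumour neutrophils (8.18) to LP MHCIIlow macrophages (1.97), and tumour MHCIIhi macrophages overlapped both LP monocytes above and tumour MHCIIlow macrophages below them. For Itga5 the lowest groups were the tumour macrophages (5.37 and 5.10), below LP neutrophils (5.98). For Itgax the lowest, LP MHCIIlow macrophages (3.20), was separated from LP monocytes (5.24), which overlapped tumour neutrophils (5.84).

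Across the 24 libraries, Pearson correlations of log2 RPKM describe which genes moved most like each member; the libraries share donor pools, populations and scaling, so no test goes with them. Among the members, Itgam moved with Itgb2 (r = 0.94) and Itgal (0.89), and Itga5 with Itgb7 (0.87), while Itgam and Itgb1 moved oppositely (-0.79). Over all genes tested, predicted genes aside, Itgb7 was most like Met (0.939), Itga1 (0.923) and Csnk1a1 (0.900), and Itga5 most like Met (0.906), Tiam1 (0.901) and Papss2 (0.887). Met was therefore the nearest gene of both. Itgb2 was most like Kctd10 (0.983), Sema4a and Iqgap1, Itgal most like Sirpb1b (0.976), Myo1f and Sorl1, and Itgam most like Tcf25 (0.974), Flot1 and Nrd1. Itgax was most like H2-Oa (0.869), Epb41 and Gm2a, and Itgb1 most like Ddx51 (0.967), Lrrc59 and Rrp7a. Itga6 was most like Abcd3 (0.936), Cttn and Rpa1, Itga4 most like Slc30a7 (0.833), C2cd3 and Cdk5rap3, and Itgav most like Hccs (0.820), Il12b and Gpr171.

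Other genes of integrin biology were followed as lists between tumour and LP, where 19.5% of all genes were called in MHCIIhi macrophages, 23.3% in MHCIIlow macrophages, 9.29% in monocytes and 32.2% in neutrophils, shares against which each count of a list is to be read. Of the other integrin subunits, 10 of 17 were tested, and Itgb5, which pairs with αV, was 2.31-fold higher in tumour MHCIIhi macrophages (limma adjusted p = 0.0465) and 3.87-fold higher in tumour MHCIIlow macrophages (limma adjusted p = 0.00162). Itga1, a collagen-binding α chain, was lower in tumour MHCIIhi macrophages, with at most 26 reads per library against up to 570 in the LP (limma adjusted p = 0.00105). In total 1 subunit was higher and 1 lower in each macrophage subset. In monocytes 0 passed with 0 at an unadjusted p under 0.05 and 1 by voom on recovered reads, and in neutrophils 0 passed with 3 and 2.

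Of 13 ligands and counter-receptors tested, 4 were higher and 1 lower in tumour MHCIIhi macrophages (median 0.1), 5 higher and 1 lower in MHCIIlow macrophages (0.89), 1 and 1 in monocytes (0.19) and 3 and 0 in neutrophils (0.54). Mfge8, a bridging protein that αV integrins bind on dying cells, was 6.70-fold higher in tumour MHCIIhi (limma adjusted p = 0.000671) and 22.7-fold higher in tumour MHCIIlow macrophages (limma adjusted p = 2.26e-06). Fn1, fibronectin, the ligand of α5β1, rose 2.88-fold and 3.93-fold in the same cells in which Itga5 fell, and 2.84-fold in neutrophils. Spp1, osteopontin, rose 4.96-fold in MHCIIlow macrophages. Icam1, the ligand of LFA-1 and Mac-1, rose 1.95-fold in monocytes and 2.19-fold in neutrophils. Thbs1, thrombospondin 1, fell 3.52-fold in MHCIIhi macrophages, and Vcam1 2.80-fold in monocytes.

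Of 13 genes of integrin activation tested, 3 were higher and 2 lower in tumour MHCIIhi macrophages (median -0.18), 3 and 3 in MHCIIlow macrophages (-0.04), 2 and 0 in monocytes (0.21) and 8 and 2 in neutrophils (0.86). Fermt3, kindlin-3, which binds β tails, rose 2.08-fold in MHCIIhi macrophages (limma adjusted p = 0.000108), 2.59-fold in MHCIIlow macrophages and 1.90-fold in monocytes. Rassf5, the Rap1 effector RAPL, rose 3.11-fold, 3.62-fold and 2.20-fold in the same populations, so both were higher in monocytes where no member passed. In neutrophils Rapgef1, a Rap1 exchange factor, rose 2.87-fold (limma adjusted p = 1.32e-06) and Apbb1ip, the adaptor RIAM, fell 2.65-fold (limma adjusted p = 0.000287).

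Of 8 inhibitors tested, 1 was higher and 0 lower in MHCIIhi macrophages, 2 and 1 in MHCIIlow macrophages, 2 and 0 in monocytes and 2 and 3 in neutrophils. Sipa1, a Rap1 GTPase-activating protein, rose 4.04-fold in MHCIIhi macrophages (limma adjusted p = 1.18e-05), 3.07-fold in MHCIIlow macrophages and 2.19-fold in monocytes. Of 17 signalling genes tested, 2 were higher and 6 lower in MHCIIhi macrophages, 5 and 3 in MHCIIlow macrophages, 2 and 0 in monocytes and 4 and 2 in neutrophils. Parvg, γ-parvin, rose 3.25-fold in MHCIIhi and 8.79-fold in MHCIIlow macrophages, and Plcg2 rose 3.84-fold in neutrophils (limma adjusted p = 8.83e-07). Of 5 other adhesion receptors, 0 were higher and 3 lower in MHCIIhi macrophages, 1 and 1 in MHCIIlow macrophages, 1 and 0 in monocytes and 2 and 1 in neutrophils. Cd44, a hyaluronan receptor, fell 3.86-fold in MHCIIhi (limma adjusted p = 7.74e-07) and 3.54-fold in MHCIIlow macrophages and rose 1.5-fold in neutrophils, the same directions as Itga5.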

How the data were processed

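RNA-seq of 24 libraries (8 groups of 3, paired ends) was used as the authors deposited it, as log2 RPKM of 17301 genes, a log2 scale relative to gene length and to a library size that the authors scaled between libraries. Per the labels and the study's methods, reads were aligned with STAR (2.3) to GRCm38/mm10 and counted with featureCounts (1.5) on GENCODE genes, and genes with few reads on average were removed by the authors. The deposited values held no counts, but whole reads could be recovered: with a prior of 0.25 reads and 1 length for each of the 17301 genes, 100% of 415224 values came out within 0.001 of a whole number. Libraries held 12838061 to 41718078 reads on genes. Identifiers of 17190 genes matched a symbol, and 0 columns of samples were left unused.

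The main test was limma (version 3.58.1, R 4.3.3) on the deposited log2 RPKM, in a single fit of all 8 groups with no covariate, over the 12878 genes with a mean of at least 1 RPKM in at least 1 group. Values of p were adjusted over all of these genes by the method of Benjamini and Hochberg, and genes under 0.05 were called. There were 13 comparisons: 10 between groups and 3 of the tumour change between populations. An exact permutation test of 3 against 3 libraries cannot go below p = 0.1 and was not used. Each library is a pool of mice, so p-values rest on the spread between pools, estimated once per gene over all 8 groups. The SE and 95% interval of a comparison therefore also reflect the spread of groups outside it. For Itgal the SE was 0.35 in monocytes, with SDs of 0.04 in the LP and 0.14 in tumours. The SD of Itgal in LP MHCIIlow macrophages was 1.14. Alternatives were log2(RPKM + 1) and log2(RPKM + 0.1), no filter and a filter of 5 RPKM, quantile normalization, median centring, libraries weighted by quality (arrayWeights), only the libraries compared, voom on recovered reads, the donor pool as a fixed or random replicate block, and leaving out each library. Voom with the summed reads as library size was added after seeing the data. The fits were tested on simulated data.

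The donor number was taken to pair libraries within a tissue only, since the strains of the tissues differ. Whether a number found in both tissues, such as V, marks the same experiment is not given by the labels. A fixed block of pools within a tissue cannot be used between tumour and LP. Correlations of deviations from group means were -0.0661 to 0.255 over 29 same-number pairs (median 0.0169), with 5 above 0.1, against a median of -0.0114 over 79 other pairs.

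The 10 members, and the lists of other integrin subunits, ligands, activation, inhibition, signalling, other adhesion receptors and cell type markers, were chosen with earlier results of these data known. Text names all members and, for each other list and comparison, up to 4 called genes with the largest change whose groups did not overlap, and for each member the 3 genes with the highest Pearson r. Scripts used python 3.11.15, numpy 2.4.6, pandas 2.3.3, scipy 1.17.1 and matplotlib 3.10.9. Promoters came from RefSeq (GRCm38.p6) and gene positions from GENCODE M21; 5 of the 10 member lengths behind the deposited values equal those of M21, so the annotation the authors used was another version.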

Additional observations from a re-analysis of the deposited data

Results flagged for a closer look

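For 6 results the change between LP and tumour differed between populations by limma's test of the difference. Between the macrophage subsets these were Itgax, whose log2 difference was 2.84 (higher in MHCIIlow cells), and Itgb7, at 3.91. Between monocytes and macrophages they were Itga5 at 1.57, Itgal at -1.62 and Itgb7 at 3.5. Between neutrophils and monocytes it was Itgb1 at -0.97. Groups of 3 libraries are too small for a test of single libraries that stand apart.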

How the results depend on the processing

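Of the values of 10 members in 13 comparisons, 78 were called in at least 1 fit. Over these, 585 values without 1 library kept their direction and their side of the threshold, 14 became called, 23 lost their call and 5 changed sign. Under the other alternatives these were 798, 70, 38 and 7. Of the 52 values called in no fit, 22 changed sign in at least 1 fit, to values between -0.88 and 0.3, the lowest that of Itga6 between macrophages and monocytes of the LP without LP monocyte library IV. Counts of called members moved as follows, and the cause was not tested. In tumour against LP neutrophils, 5 became 3 with quantile normalization, 3 with arrayWeights, 2 with summed reads as library size and 3 to 5 without 1 library (3 without LP library V). In MHCIIlow macrophages 5 became 3 to 5 without 1 library (3 without LP library III). In monocytes 0 became 1 with only the libraries compared and 0 to 1 without 1 library (1 without LP library IV). Between LP macrophage subsets 2 became 4 with log2(RPKM + 1), 4 with quantile normalization, 5 with arrayWeights and 4 with voom on recovered reads. Between tumour subsets 0 became 2 with quantile normalization, 1 with voom and 0 to 1 without 1 library (1 without MHCIIlow library V). Between tumour neutrophils and monocytes 8 became 4 with quantile normalization and 5 with median centring. For the tumour change of MHCIIlow against MHCIIhi cells 2 became 0 with only the libraries compared and 1 to 3 without 1 library (1 without LP MHCIIhi library IV). For monocytes against macrophages 3 became 5 with log2(RPKM + 1), quantile normalization, voom and summed reads, and 6 with arrayWeights. For neutrophils against monocytes 1 became 2 with log2(RPKM + 1), median centring and summed reads, 0 with quantile normalization and arrayWeights, 3 with voom, 3 with the fixed replicate block, and 0 to 2 without 1 library (0 without LP neutrophil library V, 2 without tumour neutrophil library II). Beside the changes given above, the fixed replicate block changed no other call.

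Among the 78, these values changed sign. Between macrophages and monocytes of tumours, Itgb1 was -0.11 with median centring and -0.04 to 0.11 without 1 library (lowest without tumour MHCIIhi library V). Between neutrophils and monocytes of the LP, Itgam was -0.09 and Itgb2 -0.72 with quantile normalization, Itgb2 was -0.19 with summed reads, and Itgav was 0.16 with median centring and -0.37 to 0.18 without 1 library (highest without LP neutrophil library IV). In tumours Itgb2 was -0.26 with quantile normalization, and Itgax was 0.44 with median centring and -0.21 to 0.14 without 1 library (above 0 without monocyte libraries II, 0.10, and V, 0.08, and neutrophil library I, 0.14).

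Over all genes, the number called in MHCIIhi macrophages (2511) became 3788 with arrayWeights, 3797 with voom and 3841 with summed reads, in monocytes (1197) 1869 with arrayWeights and 1894 with summed reads, and in neutrophils (4142) 2366 with only the libraries compared and 2625 with arrayWeights. Between LP subsets 991 became 1695 with log2(RPKM + 1), 1916 with arrayWeights, 1840 with voom and 2233 with summed reads, and between tumour subsets 146 became 4 with only the libraries compared, 278 with quantile normalization, 297 with arrayWeights, 241 with voom, 303 with summed reads and 304 with the fixed replicate block. For the tumour change of MHCIIlow against MHCIIhi cells 188 became 87 with only the libraries compared, 473 with log2(RPKM + 1), 338 with quantile normalization, 433 with arrayWeights, 539 with voom and 552 with summed reads, for monocytes against macrophages 1183 became 1902 with log2(RPKM + 1), 1866 with arrayWeights and 1996 with summed reads, and for neutrophils against monocytes 1173 became 528 with quantile normalization. With summed reads the median of all genes between neutrophils and monocytes was -1.04 in the LP and -1.37 in tumours, and the share of called genes that were higher went from 44.2% to 23.3% and from 40.0% to 17.3%; in tumour against LP neutrophils it went from 40.8% to 18.9%, and to 57.1% with median centring. It went from 40.0% to 53.1% between tumour neutrophils and monocytes, from 61.4% to 73.7% for the tumour change of monocytes against macrophages and from 39.6% to 53.9% for that of neutrophils against monocytes with median centring, and from 27.6% to 39.5% between LP subsets and from 77.7% to 60.9% for the tumour change of MHCIIlow against MHCIIhi cells with quantile normalization. With summed reads it went from 41.1% to 58.5% in MHCIIhi macrophages, from 52.3% to 34.4% in monocytes, from 27.6% to 69.5% and from 50% to 75.9% between the subsets of the LP and of tumours, and from 42.4% to 55.5% and from 44.0% to 67.5% between macrophages and monocytes of the LP and of tumours. For the tumour changes of MHCIIlow against MHCIIhi cells, monocytes against macrophages and neutrophils against monocytes it became 48.7%, 38.0% and 16.0%. Depth limited Itga6 and Itgb7, with 15 and 21 reads in their lowest libraries.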

Other observations

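The other integrin genes also differed between populations of the same tissue. Counts of lists here are to be read beside the share of all genes called: 29.5% in the LP and 38.3% in tumours between macrophages and monocytes, 54.5% and 58.1% between neutrophils and monocytes, and 7.7% and 1.13% between the macrophage subsets. Itgb2l, a β chain gene close to Itgb2, was called higher in neutrophils than in monocytes in both tissues (limma adjusted p = 2.62e-05 in the LP and 4.02e-05 in tumours), with at most 24 reads in an LP monocyte library, and Itgb3, the β3 chain, was called higher as well (0.0107 and 0.00554). Itga9, the α9 chain, was higher in macrophages than in monocytes (log2 fold change 3.83, limma adjusted p = 0.0275 in the LP, and 4.92, 0.00427, in tumours). Of 10 subunits tested, 2 were higher and 5 lower in LP neutrophils than in LP monocytes and 2 and 4 in tumours, while 1 was higher and 3 lower in LP macrophages than in LP monocytes and 2 and 2 in tumours. Between the macrophage subsets limma called 0 in either tissue, with 0 in the LP and 1 in tumours at an unadjusted p under 0.05 and 2 and 0 by voom on recovered reads.

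Among ligands, Vcam1, which α4β1 binds, was 40.9-fold higher in LP macrophages than in LP monocytes (limma adjusted p = 2.61e-11) and 157-fold higher in tumours, and Fn1 was 14.6-fold and 10.6-fold lower. Of 13 ligands, 2 were higher and 8 lower in LP macrophages and 3 and 6 in tumour macrophages, and 2 and 5 in LP neutrophils and 4 and 4 in tumour neutrophils, each against monocytes. Of 13 activation genes, 0 were higher and 6 lower in LP macrophages and 0 and 9 in tumour macrophages, and 7 were higher and 3 lower in LP neutrophils and 6 and 1 in tumour neutrophils, the last near the share of all genes. Rasgrp2, the exchange factor CalDAG-GEFI that loads Rap1, showed both directions: it was 3.45-fold lower in LP macrophages and 4.55-fold higher in LP neutrophils (limma adjusted p = 0.00439 and 0.00126). Of 8 inhibitors, 1 was higher and 4 lower in LP macrophages and 1 and 5 in tumour macrophages, and 2 and 1 in LP and 4 and 2 in tumour neutrophils.

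Of 17 signalling genes, 9 were lower and 0 higher in MHCIIlow than MHCIIhi macrophages of the LP (median log2 fold change -0.76 against -0.03 over all genes), among them Ptk2b, the kinase Pyk2 (3.05-fold), Syk (2.21-fold) and Fgr (2.14-fold). In the LP, 1 was higher and 7 lower in macrophages than monocytes, and 9 higher and 5 lower in neutrophils; in tumours these were 2 and 10, and 10 and 2. Of 5 other adhesion receptors, 0 were higher and 4 lower in macrophages than in monocytes and 3 were higher and 0 lower in neutrophils, in both tissues. Among them Cd44 was 1.76-fold lower in LP macrophages (limma adjusted p = 0.00115) and 7.49-fold lower in tumour macrophages (7.69e-11). In tumours the subsets differed in 0 genes of the ligand, activation, inhibition, signalling and adhesion lists by limma, with 5, 0, 2, 4 and 2 at an unadjusted p under 0.05 and 2, 0, 0, 0 and 0 by voom.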
